A study of Homo sapiens with 8 samples.

Results

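The 10 genes described here encode the 6 subunits of the MCM helicase (MCM2, MCM3, MCM4, MCM5, MCM6 and MCM7), the sliding clamp PCNA, the proliferation antigen Ki-67 (MKI67), thymidylate synthase (TYMS) and the mitotic ubiquitin-conjugating enzyme UBE2C. They were chosen by name: a row of the deposited tables counted as a member when its gene was an annotated gene and its gene name was on that list. The 10 genes are 10 of 20565 annotated genes, and they hold 1018 of the 506946 transcript models listed, of which 594 had at least 1 read, against 268821 over all genes. In the 8 libraries together 2820 reads were assigned to them.

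The study sequenced native RNA directly on nanopores, so that the RNA strand itself was read, from total RNA of 3 human cell lines that are reference lines of the ENCODE project, and its stated purpose was a comparison with reads of another long-read platform. GM12878 is a B-lymphoblastoid line (3 libraries), HepG2 is a hepatocellular carcinoma line (3 libraries), and K562 (2 libraries) is a line known from a chronic myelogenous leukaemia, although its labels carry the same cell type as those of GM12878. No treatment, genotype or time is given for any group, and each group is a single line, so that line, tissue of origin and donor cannot be told apart. The labels do not say whether replicates came from separate cultures. The p-values therefore reflect variation among these 8 libraries, part or all of which may be technical.

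The 8 libraries held between 70374 and 461497 reads. Line markers went with the line names: reads of ALB, AFP, APOA1 and TTR were found in HepG2 and none in the other lines, those of HBG2, HBG1, HBE1 and GATA1 in K562 and none in the other lines, and CD79A, MS4A1, CD74 and IGHM were highest in GM12878. Replicates differed by more than counting noise in every pair, with a chi-square per degree of freedom between 1.25 and 1.40 in GM12878, between 1.56 and 2.63 in HepG2 and of 4.19 between the K562 libraries. No sequencing batch or date is given.

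Before a cell copies its DNA, the 6 MCM proteins are loaded as a ring onto replication origins, and in S phase the ring, joined by CDC45 and the GINS complex, becomes the helicase that unwinds the double helix. PCNA encircles the DNA behind the fork and holds the DNA polymerases on it, and thymidylate synthase makes the thymidine nucleotide that the polymerases need. Ki-67 coats mitotic chromosomes and is the usual stain for dividing cells, and UBE2C starts the ubiquitin chains with which the anaphase-promoting complex ends mitosis. Many S phase genes are known to be controlled by E2F factors, and many genes of G2 and mitosis through a pair of promoter elements, the CCAAT box and the cell cycle genes homology region (CHR).

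RefSeq promoter windows (GRCh38.p14) were matched for 7 of the 10 genes, as 10 windows. Each window runs from 250 bases before to 50 bases after an annotated start. No window was included for MCM4, MCM5 or UBE2C, and the counts of windows below leave these genes out. For MCM4 this need not mean that RefSeq lacks one. The windows below are shown because these genes are read together in the comparisons that follow, MCM3 included as the exception. Capitals mark 8-base E2F words (TTTCCCGC, TTTCGCGC, TTTGCCGC or TTTGGCGC), CCAAT and the CHR word TTTGAA, each on either strand, and each sequence runs 5′ to 3′ on the strand of its gene. The windows lie at chr3:127598161-127598460 (plus strand) for MCM2, chr6:52284693-52284992 (minus) for MCM3, chr2:135876394-135876693 (minus) for MCM6, chr7:100101348-100101647 (minus) for MCM7, chr20:5119909-5120208 (minus) for PCNA, chr18:657403-657702 (plus) for TYMS and chr10:128126374-128126673 (minus) for MKI67.
MCM2: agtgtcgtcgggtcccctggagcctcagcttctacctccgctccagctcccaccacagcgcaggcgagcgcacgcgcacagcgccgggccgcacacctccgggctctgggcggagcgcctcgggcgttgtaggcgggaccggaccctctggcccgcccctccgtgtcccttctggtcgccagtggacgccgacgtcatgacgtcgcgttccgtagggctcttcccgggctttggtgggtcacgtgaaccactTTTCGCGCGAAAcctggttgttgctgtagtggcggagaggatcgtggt
MCM3: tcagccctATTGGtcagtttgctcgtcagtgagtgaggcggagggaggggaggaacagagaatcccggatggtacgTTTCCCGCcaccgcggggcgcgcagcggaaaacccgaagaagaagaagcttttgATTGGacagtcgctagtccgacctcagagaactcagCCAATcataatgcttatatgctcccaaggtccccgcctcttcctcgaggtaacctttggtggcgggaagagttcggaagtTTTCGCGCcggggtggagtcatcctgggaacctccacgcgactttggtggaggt
MCM6: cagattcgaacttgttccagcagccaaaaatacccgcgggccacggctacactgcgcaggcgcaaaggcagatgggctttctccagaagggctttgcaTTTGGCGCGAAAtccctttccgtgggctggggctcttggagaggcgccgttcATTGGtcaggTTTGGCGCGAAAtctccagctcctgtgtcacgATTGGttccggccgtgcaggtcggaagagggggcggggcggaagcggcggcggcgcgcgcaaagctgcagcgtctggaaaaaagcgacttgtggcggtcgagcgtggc
MCM7: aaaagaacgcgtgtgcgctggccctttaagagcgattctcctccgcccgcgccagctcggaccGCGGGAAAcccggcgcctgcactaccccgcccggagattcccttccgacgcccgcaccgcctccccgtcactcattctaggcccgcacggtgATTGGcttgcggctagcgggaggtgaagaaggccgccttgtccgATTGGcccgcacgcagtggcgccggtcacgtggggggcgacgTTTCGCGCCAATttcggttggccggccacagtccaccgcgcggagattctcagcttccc
PCNA: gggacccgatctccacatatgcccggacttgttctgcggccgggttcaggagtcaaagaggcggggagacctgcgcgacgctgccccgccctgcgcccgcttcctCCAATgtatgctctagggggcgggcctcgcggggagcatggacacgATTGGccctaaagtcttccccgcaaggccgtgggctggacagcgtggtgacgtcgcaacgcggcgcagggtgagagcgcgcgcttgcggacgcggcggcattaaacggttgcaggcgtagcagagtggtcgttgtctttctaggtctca
TYMS: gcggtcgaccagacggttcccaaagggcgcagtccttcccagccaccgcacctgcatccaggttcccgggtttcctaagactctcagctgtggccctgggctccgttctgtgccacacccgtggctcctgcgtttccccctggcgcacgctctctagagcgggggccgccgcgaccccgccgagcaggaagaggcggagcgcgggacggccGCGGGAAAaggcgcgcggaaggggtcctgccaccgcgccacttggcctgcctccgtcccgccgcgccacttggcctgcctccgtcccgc
MKI67: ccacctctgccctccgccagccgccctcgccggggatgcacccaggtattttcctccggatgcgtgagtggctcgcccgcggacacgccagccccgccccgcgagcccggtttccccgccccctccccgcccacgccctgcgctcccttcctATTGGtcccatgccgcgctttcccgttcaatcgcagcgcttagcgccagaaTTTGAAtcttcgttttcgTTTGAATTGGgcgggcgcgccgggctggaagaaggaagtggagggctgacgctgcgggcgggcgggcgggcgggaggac

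An E2F word stood in 6 of the 10 windows, against 3.31% of all 35116 RefSeq windows of this length. The start in the MCM2 window, at 127598411, lies downstream of that of MCM2-201, at 127598223. In this window the words TTTCGCGC on either strand overlap in a single run that begins at base 3, counting the start as base 1. In MCM6 there are 2 such runs, in each of which TTTGGCGC overlaps TTTCGCGC of the other strand, 152 and 90 bases before the start. In the MCM7 window shown, TTTCGCGC overlaps a CCAAT box that begins 2 bases before the start. That window is shown because it is the one of 3 MCM7 windows that holds an E2F word, and it does not contain the annotated start of MCM7-201, at position 100101940. A CCAAT box was found in 8 of the 10 windows, against 34.6% of all windows, and none was in those of MCM2 and TYMS. MKI67, the one mitotic gene among those matched, held no E2F word and was alone among the 10 windows in holding the CHR word, which it had at 2 positions, 47 and 29 bases before the start, the nearer one overlapping a CCAAT box on the other strand. TTTGAA was in 15.2% of all windows. The PCNA window shown, which contains the start of PCNA-201, the model with most PCNA reads, had no E2F word. The other PCNA window, which contains the upstream start of PCNA-202, held 1 (TTTCCCGC). These matches describe letters only, and no binding was measured.

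All 10 genes passed the filter on low counts, with 4778 genes tested. Levels are given as CPM, reads scaled to a common library size over the tested genes after TMM normalization, and log2 changes with their standard errors (SE) and adjusted p-values come from the quasi-likelihood test of edgeR, adjusted by the method of Benjamini and Hochberg over all 4778 genes. A gene was called where its adjusted p was under 0.05 and its change at least 2-fold.

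Reads of the 10 genes together made up 0.307%, 0.307% and 0.308% of the GM12878 libraries, 0.0698%, 0.0680% and 0.0878% of the HepG2 libraries and 0.212% and 0.159% of the K562 libraries. The lines did not overlap in this share. On the CPM scale the summed level of the 10 genes was 3102 ± 48.6 (SD, n = 3) in GM12878, 989 ± 118 (SD, n = 3) in HepG2 and 1842 ± 175 (SD, n = 2) in K562. The GM12878 sum was thus 3.14 times that of HepG2 and 1.68 times that of K562, and the K562 sum was 1.86 times that of HepG2. In bulk RNA fewer cycling cells and less RNA per cell cannot be told apart.

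**Figure D1:**
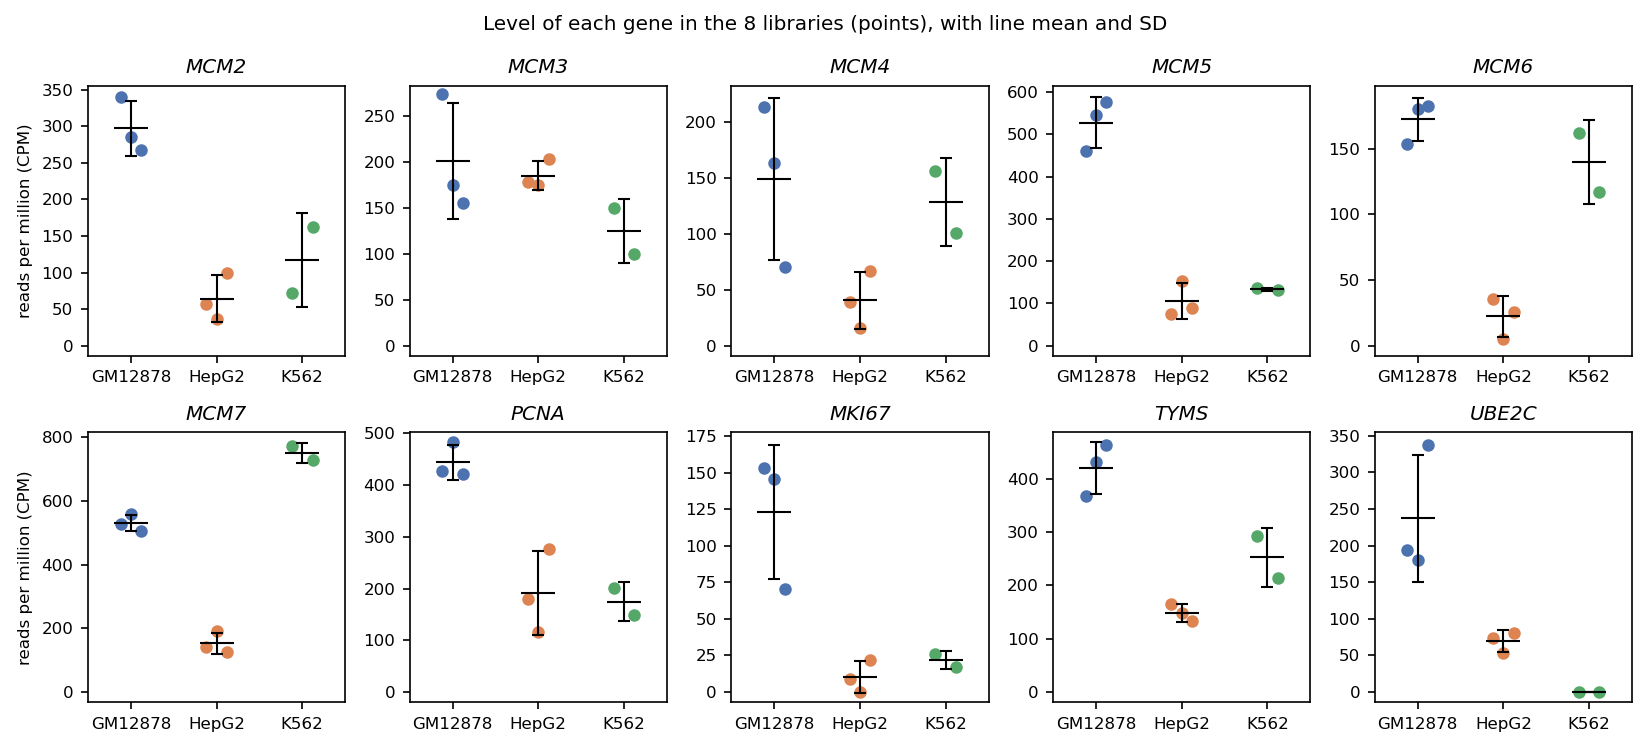
Level of each of the 10 genes in the 8 libraries, in CPM on linear axes that differ between panels, with points for libraries and bars for the mean and SD of each line. MCM7 is highest in K562, MCM3 overlaps between GM12878 and HepG2, and UBE2C is at 0 in both K562 libraries.

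HepG2 was lower than GM12878 in 9 of the 10 genes, and the exception was MCM3. Called genes higher in GM12878 made up 21.1% of all tested genes in this comparison, those higher in HepG2 28%, and those called either way 49.1%, while no member was called higher in HepG2. The libraries of the lines did not overlap for 9 of the 10 genes, against 63.1% of all tested genes. The median log2 change of the members was -1.87, and that of all tested genes was 0.02. K562 was lower than GM12878 in 5 of the 10 genes (MCM2, MCM5, PCNA, MKI67 and UBE2C) and higher in none, where 14.8% of all tested genes were called higher in GM12878, 13.9% higher in K562 and 28.7% either way. The members' median log2 change was here -1.02, against 0.00 over all tested genes, and libraries did not overlap for 8 of the 10 genes, against 48.8% of all. K562 was higher than HepG2 in 3 of the 10 genes (MCM4, MCM6 and MCM7) and lower in UBE2C, where 17.4% of all tested genes were called higher in K562, 26.7% higher in HepG2 and 44.1% either way. For this pair of lines the members' median log2 change was 0.78, against -0.07 over all tested genes, and libraries did not overlap for 6 of the 10 genes, against 64% of all. The 3 comparisons share libraries, so each line's values enter 2 of them.

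These counts rest on TMM scaling, with factors between 0.806 and 0.871 in HepG2 and between 1.04 and 1.20 in the other lines. Without normalization factors, an alternative chosen after seeing the data, the median of all genes moved by -0.35 on the log2 scale in HepG2 against GM12878 and by 0.31 in K562 against HepG2. The split of called genes then went from 1338 higher and 1010 lower in HepG2 to 1083 higher and 1439 lower against GM12878, and from 830 higher and 1275 lower in K562 to 1259 higher and 1012 lower against HepG2. The member counts were 9 lower in HepG2 and 5 lower in K562 against GM12878 as before, and 5 in place of 3 higher in K562 than in HepG2, with MCM2 and TYMS added.

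**Figure D2:**
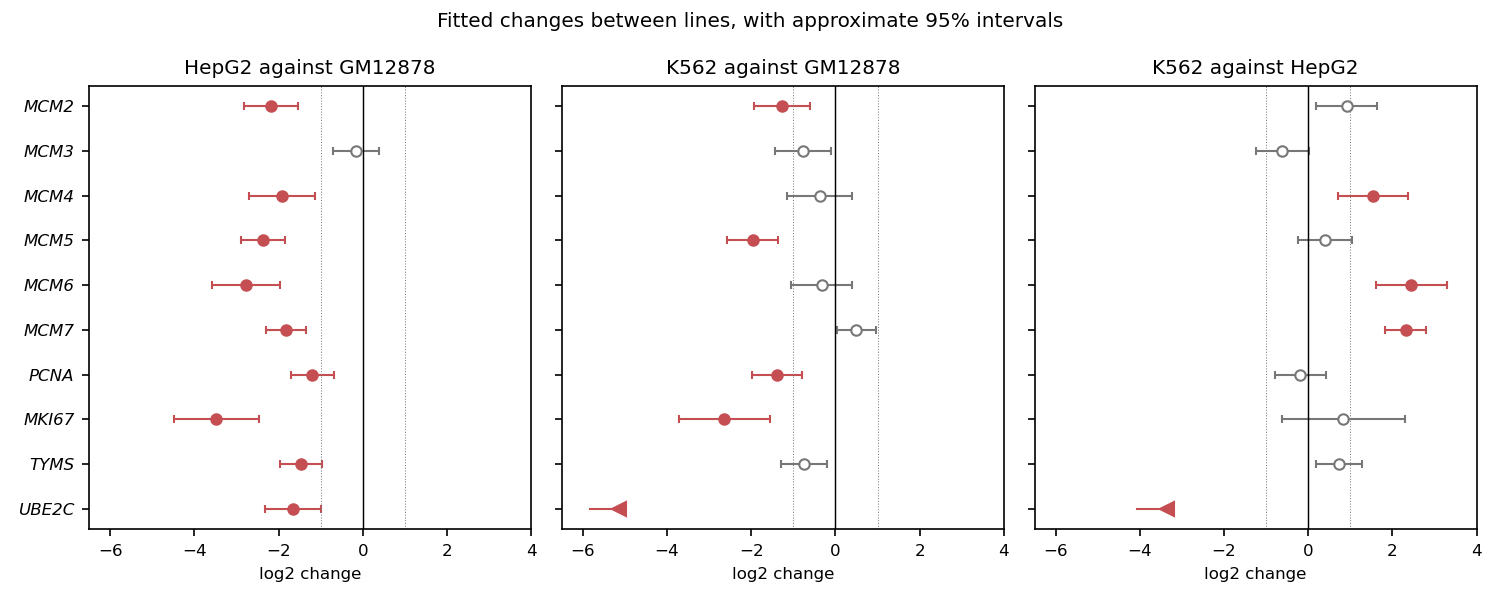
Fitted log2 changes of the 10 genes in the 3 comparisons between lines, with approximate 95% intervals from the SE. Filled points are called, dotted lines mark a 2-fold change, and the arrowheads of UBE2C mark the smallest change that 3 reads over both K562 libraries would allow. Against GM12878, HepG2 lies below 0 for every gene and MCM3 is the one whose interval includes 0.

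Of the helicase subunits, MCM2 (ENSG00000073111.13, chr3:127598223-127622436, plus strand), whose N-terminal tail also binds histones, stood at 340, 285 and 267 CPM in the GM12878 libraries, 56.3, 37.0 and 99.5 in HepG2 and 71.4 and 162 in K562. GM12878 was above every library of the other lines, and HepG2 and K562 overlapped, with K562 replicate 2 above and replicate 1 inside the HepG2 range. MCM2 fell by 2.18 on the log2 scale (SE 0.32, edgeR adjusted p = 9.80e-08) in HepG2, a 4.53-fold lower level, and by 1.27 (SE 0.34, edgeR adjusted p = 0.00285) in K562. The K562 call rested on replicate 1: without it the log2 change was -0.84, with DESeq2 the adjusted p was 0.0780, and in edgeR's test against a 2-fold change it was 0.305. The difference between K562 and HepG2 was 0.91 (SE 0.37, edgeR adjusted p = 0.0367), which is under the 2-fold limit and therefore not called.

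MCM5 (ENSG00000100297.15, chr22:35400063-35425430, plus strand), which with MCM2 forms the gate through which the ring opens onto DNA, stood at 460, 547 and 576 CPM in GM12878, 74.0, 153 and 88.4 in HepG2 and 136 and 131 in K562. Here too GM12878 stood apart from all other libraries, and both K562 values lay inside the HepG2 range. MCM5 fell 5.16-fold in HepG2, a log2 change of -2.37 (SE 0.27, edgeR adjusted p = 9.81e-11), and 3.92-fold in K562, a log2 change of -1.97 (SE 0.31, edgeR adjusted p = 6.10e-07). Between K562 and HepG2 the log2 change was 0.40, with an approximate 95% interval from -0.24 to 1.04 (edgeR adjusted p = 0.321).

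MCM4 and MCM6 form, with MCM7, a subcomplex that unwinds DNA on its own. Their means had the same order of lines as those of MCM2 and MCM5, but K562 overlapped GM12878 in both. MCM4 (ENSG00000104738.17, chr8:47960185-47978160, plus strand) stood at 213, 163 and 70.3 CPM in GM12878, 38.5, 15.9 and 66.3 in HepG2 and 156 and 100 in K562. GM12878 replicate 3, at 5 reads, was little above the highest HepG2 library, and both K562 libraries were inside the GM12878 range. MCM4 was lower in HepG2 than in GM12878 by a log2 change of -1.91 (SE 0.40, edgeR adjusted p = 5.39e-05) and higher in K562 than in HepG2 by 1.54 (SE 0.43, edgeR adjusted p = 0.00219), a call that was lost in the test against a 2-fold change (edgeR adjusted p = 0.105). K562 and GM12878 differed by -0.37, with an approximate interval from -1.15 to 0.40 (edgeR adjusted p = 0.520), and without GM12878 replicate 1 that value was 0.01.

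MCM6 (ENSG00000076003.4, chr2:135839626-135876426, minus strand) stood at 153, 180 and 183 CPM in GM12878, 35.5, 5.28 and 25.8 in HepG2 and 162 and 117 in K562. All HepG2 libraries were far below the others, with 12, 1 and 7 reads, and K562 overlapped GM12878. MCM6 was 6.82-fold lower in HepG2 than in GM12878 (log2 -2.77, SE 0.41, edgeR adjusted p = 7.71e-08) and 5.44-fold higher in K562 than in HepG2 (log2 2.44, SE 0.43, edgeR adjusted p = 3.67e-06). Its difference between K562 and GM12878 was -0.33, with an approximate interval from -1.05 to 0.40 (edgeR adjusted p = 0.557).

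MCM7 (ENSG00000166508.17, chr7:100092728-100101940, minus strand) was the member with its highest mean in K562. It stood at 527, 559 and 506 CPM in GM12878, 142, 190 and 125 in HepG2 and 772 and 728 in K562, so that no 2 lines overlapped. MCM7 was 3.54-fold lower in HepG2 than in GM12878 (log2 -1.82, SE 0.24, edgeR adjusted p = 3.81e-09) and 4.97-fold higher in K562 than in HepG2 (log2 2.31, SE 0.24, edgeR adjusted p = 1.04e-11). The difference between K562 and GM12878 was 0.49 (SE 0.24), with an approximate interval from 0.03 to 0.95, and did not pass the test (edgeR adjusted p = 0.108).

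MCM3 (ENSG00000112118.18, chr6:52264009-52284881, minus strand), a neighbour of MCM5 in the ring, did not follow the other subunits. It stood at 273, 175 and 155 CPM in GM12878, 178, 174 and 203 in HepG2 and 149 and 100 in K562. GM12878 and HepG2 overlapped, and both K562 libraries were below all others. The log2 change in HepG2 against GM12878 was -0.15, with an approximate interval from -0.71 to 0.40 (edgeR adjusted p = 0.664), and it was 0.15 without GM12878 replicate 1. K562 differed from GM12878 by -0.77 (SE 0.34, edgeR adjusted p = 0.0746) and from HepG2 by -0.62 (SE 0.32, edgeR adjusted p = 0.104), neither of which passed.

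Within a library the subunits can be set against each other without any scaling between libraries. MCM7 took 26.8%, 29.3% and 28.8% of the reads of MCM2 to MCM7 in GM12878, 27.1%, 33.0% and 20.6% in HepG2, and 53.4% and 54.4% in K562. Both K562 libraries lay above all 6 of the others. Over the pooled reads of a line the share was 28.2% in GM12878 (211 of 748 reads, Wilson 95% interval 25.1% to 31.5%), 26.2% in HepG2 (118 of 451, 22.3% to 30.4%) and 54.0% in K562 (330 of 611, 50.05% to 57.9%). These intervals cover counting error only. Divided by the length of the most read known model of each gene, the MCM7 share per kilobase was 32.1%, 28.9% and 58.8%. Direct RNA reads start at the poly(A) tail, so read counts need not rise with length, and this division is not a correction.

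Over the pooled reads of a line, the gene with most helicase reads was MCM7 in GM12878 and K562 and MCM3 in HepG2. In GM12878 MCM5 was close to MCM7, with 204 reads against 211, and led in replicate 3 (41 against 36). In HepG2 replicate 2 MCM7 led MCM3 (36 reads against 33). MCM5 took 27.3% of the helicase reads in GM12878, 17.3% in HepG2 and 9.66% in K562. MCM3 took 10.96% in GM12878, 32.8% in HepG2 and 8.51% in K562. Over the pooled K562 reads the other 5 subunits lay between 8.51% and 9.66%, but the libraries differed. MCM2 had 4.93% in replicate 1 and 12.1% in replicate 2. In GM12878 the pooled values of the other 5 ran from 8.69% for MCM4 to 27.3% for MCM5, and in HepG2 from 4.43% for MCM6 to 32.8% for MCM3. Summed CPM of MCM2 to MCM6 without MCM7 was 1347 ± 94.4 (SD, n = 3) in GM12878, 417 ± 57.1 (SD, n = 3) in HepG2 and 643 ± 45.4 (SD, n = 2) in K562. K562 then stood 1.54 times above HepG2, where with MCM7 included the sums were 1393 ± 76.7 (SD, n = 2) in K562 and 569 ± 42.4 (SD, n = 3) in HepG2.

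**Figure D3:**
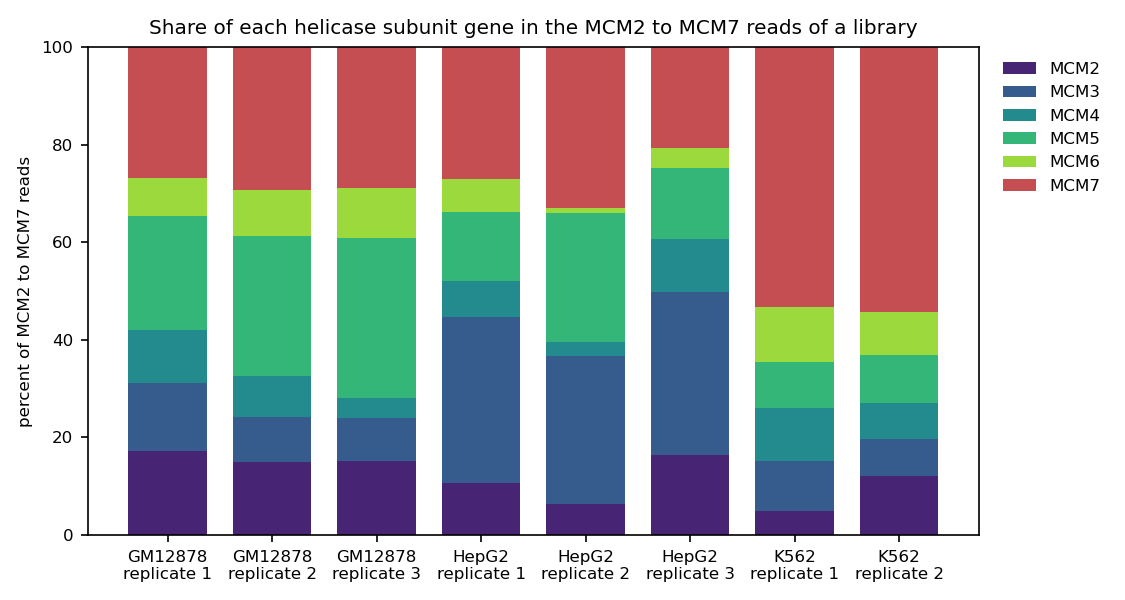
Share of each helicase subunit gene in the reads of MCM2 to MCM7, in percent, for each of the 8 libraries. MCM7 takes 53.4% and 54.4% in the K562 libraries and at most 33.0% elsewhere, and MCM3 takes its widest share in HepG2.

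PCNA (ENSG00000132646.10, chr20:5114953-5126626, minus strand) stood at 427, 483 and 422 CPM in GM12878, 181, 116 and 276 in HepG2 and 201 and 148 in K562. GM12878 was above all other libraries, and K562 lay inside the HepG2 range. PCNA was 2.29-fold lower in HepG2 than in GM12878 (log2 -1.20, SE 0.26, edgeR adjusted p = 8.60e-05) and 2.61-fold lower in K562 (log2 -1.38, SE 0.31, edgeR adjusted p = 0.000251). Without HepG2 replicate 2 the HepG2 change was -0.92, under the 2-fold limit, and in edgeR's test against a 2-fold change neither fall of PCNA passed (adjusted p = 0.199 and 0.152). The difference between K562 and HepG2 was -0.18, with an approximate interval from -0.78 to 0.41 (edgeR adjusted p = 0.644), and its sign turned in some alternatives, to 0.21 without normalization factors.

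TYMS (ENSG00000176890.15, chr18:657604-673578, plus strand) stood at 367, 431 and 464 CPM in GM12878, 166, 148 and 133 in HepG2 and 292 and 214 in K562. No 2 lines overlapped, with K562 between the others. TYMS was 2.78-fold lower in HepG2 than in GM12878 (log2 -1.47, SE 0.25, edgeR adjusted p = 1.79e-06). K562 differed from GM12878 by -0.74 (SE 0.28, edgeR adjusted p = 0.0330) and from HepG2 by 0.73 (SE 0.28, edgeR adjusted p = 0.0257), both under the 2-fold limit and not called.

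The opposite strand of the TYMS locus went the other way. TYMSOS, a gene on the minus strand whose annotated span overlaps that of TYMS by 737 bases, stood at 6.67, 11.6 and 0 CPM in GM12878, 107, 122 and 133 in HepG2 and 45.4 and 37.9 in K562. The lines did not overlap, and HepG2 was highest, with 95 reads against 3 in GM12878 and 18 in K562. TYMSOS was called higher in HepG2 (log2 3.87, SE 0.58) and in K562 (log2 2.33, SE 0.76, edgeR adjusted p = 0.0141) than in GM12878, and lower in K562 than in HepG2 (log2 -1.54, SE 0.41, edgeR adjusted p = 0.00156). The sources used here do not state whether counting used the strand, so the split of reads between TYMS and TYMSOS is uncertain. ENOSF1, which overlaps the other end of TYMS by 3255 bases on the minus strand, had 0 reads in GM12878, 7 in HepG2 and 14 in K562 and was not tested.

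MKI67 (ENSG00000148773.13, chr10:128096659-128126385, minus strand) stood at 153, 145 and 70.3 CPM in GM12878, 8.88, 0 and 22.1 in HepG2 and 26.0 and 17.2 in K562. GM12878 was above all other libraries, and HepG2 and K562, with 9 reads each, overlapped. MKI67 was 11.2-fold lower in HepG2 than in GM12878 (log2 -3.48, SE 0.51, edgeR adjusted p = 7.34e-08) and 6.26-fold lower in K562 (log2 -2.65, SE 0.55, edgeR adjusted p = 0.000109). At this depth K562 and HepG2 could not be told apart, with a log2 change of 0.83 and an approximate interval from -0.63 to 2.30 (edgeR adjusted p = 0.370).

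UBE2C (ENSG00000175063.16, chr20:45812576-45816957, plus strand) stood at 193, 180 and 337 CPM in GM12878 and 74.0, 52.8 and 81.1 in HepG2, and had no read in either K562 library. The lines did not overlap. UBE2C was 3.14-fold lower in HepG2 than in GM12878 (log2 -1.65, SE 0.34, edgeR adjusted p = 3.80e-05). A count of 0 over both K562 libraries allows up to 3 reads, or 6.76 CPM. On that bound, which takes the means of the other lines without their spread, UBE2C was at least 35.1-fold lower in K562 than in GM12878. Against HepG2 it was at least 10.3-fold lower. The tests belong to the fitted log2 changes and not to the bound. These were -8.52 against GM12878 (edgeR adjusted p = 5.04e-11) and -6.86 against HepG2 (edgeR adjusted p = 4.83e-07). The other E2 enzyme of the anaphase-promoting complex, UBE2S, which lengthens the chains that UBE2C starts, stood at 701 and 611 CPM in K562, above every library of GM12878 (279 to 380) and HepG2 (70.0 to 130).

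Of other genes near members, TMEM230, next to PCNA on chromosome 20, was called higher in HepG2 than in GM12878 (log2 1.48), opposite to PCNA. PRKDC lies on the opposite strand, with 1 base between the 5′ ends of its annotated span and that of MCM4. The MCM4 span starts at position 47960185, and MCM4-214, its most read known model, further downstream at 47960898. PRKDC had means of 36.5, 16.7 and 41.7 CPM in GM12878, HepG2 and K562 and was not tested. MCM3AP, which shares part of its name but no locus with MCM3, was called in no comparison.

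The other genes of DNA replication and cell division were taken from 5 lists of 136 genes drawn up from textbook roles, of which 88 passed the filter on low counts. Against GM12878, HepG2 was higher in 2 and lower in 44 of the 88, with a median log2 change of -1.18. Of all tested genes 28% were higher and 21.1% lower in that comparison. K562 was higher in 6 and lower in 8 against GM12878, with a median of 0.03, where 13.9% of all tested genes were higher and 14.8% lower. Against HepG2, K562 was higher in 46 and lower in 5, with a median of 1.17, where 17.4% of all tested genes were higher and 26.7% lower. Against GM12878, then, K562 was lower in 8 of 88 of these genes and in 5 of the 10 members, and the difference between the sets was not tested.

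Origin licensing genes, which load the helicase, had 5 of 15 tested. Of these 5, only ORC1, the largest subunit of the origin recognition complex, was called lower in HepG2 than in GM12878 (8.86 against 51.2 CPM, log2 -2.17, edgeR adjusted p = 0.00465). None was called higher, where 21.1% of all tested genes were lower and 28% higher. Between K562 and GM12878 no gene of this list was called, against 28.7% of all tested genes. With only 5 genes tested, these counts were near the background. CDT1, which brings the MCM ring to the origin, was higher in K562 than in HepG2 (310.0 against 66.4 CPM, log2 2.32).

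Of the 22 tested replisome genes, 17 were lower and none higher in HepG2 than in GM12878, with a median log2 change of -1.82. Of all tested genes 21.1% were lower and 28% higher. CDC45, the activator that joins the MCM ring at the fork, averaged 54.6 ± 35.5 CPM (SD, n = 3) in GM12878, 8.41 ± 2.92 (SD, n = 3) in HepG2 and 208 ± 9.01 (SD, n = 2) in K562. No 2 lines overlapped, and CDC45, unlike MCM2 and MCM5, was called higher in K562 than in GM12878 (log2 1.73, SE 0.39, edgeR adjusted p = 0.000363). Also lower in HepG2 were FEN1, the nuclease that trims Okazaki fragments (log2 -2.69), and TIPIN, a fork protection factor (log2 -2.53). Between K562 and GM12878, 3 replisome genes were higher, namely CDC45, the primase subunit PRIM1 (log2 2.23) and the polymerase delta subunit POLD1 (log2 1.14). As many were lower, namely GINS2 of the GINS complex (log2 -1.28), the single-strand binding protein RPA1 (log2 -1.08) and FEN1 (log2 -1.06). Since 13.9% of all tested genes were higher and 14.8% lower in K562, these counts were near the background. Against HepG2, 15 of the 22 were higher in K562 and none was lower, where 17.4% of all tested genes were higher and 26.7% lower.

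All 16 nucleotide synthesis genes were tested, and 4 were lower and 1 higher in HepG2 than in GM12878, where 21.1% of all tested genes were lower and 28% higher. The count of lower genes was thus near the background. Those with the largest falls were RRM1, the large subunit of ribonucleotide reductase (22.0 against 139 CPM, log2 -2.69), CAD, which starts pyrimidine synthesis (log2 -2.16), and DUT, which clears dUTP and supplies the substrate of thymidylate synthase (log2 -1.90). SHMT1, which feeds one-carbon units to thymidylate synthesis, was higher in HepG2 (log2 1.58). K562 was higher than GM12878 in 2 of the 16, the purine enzymes GMPS (log2 1.18) and GART (log2 1.03). It was lower in 1, the pyrimidine enzyme UMPS (log2 -1.33, edgeR adjusted p = 0.0469). Of all tested genes 13.9% were higher and 14.8% lower, so these counts were near the background or under it.

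Of the regulators of G1 and S phase, 10 of 22 were tested. In HepG2 against GM12878, 1 was higher and 4 were lower, where 49.1% of all tested genes were called, and in K562 against GM12878 1 was higher and 2 were lower, where 28.7% of all were, so these counts were near the background. CCND1, a D-type cyclin that drives cells through G1, averaged 2.22 CPM in GM12878, 118 in HepG2 and 6.49 in K562, and CCND2 averaged 263, 0 and 49.3. CCND2 was at least 70.1-fold higher in GM12878 and at least 13.1-fold higher in K562 than in HepG2, and the third D cyclin, CCND3, was higher in K562 than in GM12878 (log2 1.59). CDKN1A, the cell cycle inhibitor p21, was lower in K562 than in GM12878 (8.42 against 260.4 CPM, log2 -4.81) and than in HepG2 (log2 -3.99). E2F1, which drives S phase genes, was lower in K562 than in HepG2 (log2 -1.88), and cyclin A2 (CCNA2) was higher (log2 1.89).

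Of the 35 tested genes of mitosis and the anaphase-promoting complex, 18 were lower and none higher in HepG2 than in GM12878. Of all tested genes 21.1% were lower and 28% higher. Among the lower ones were the spindle kinesins KIF11 (log2 -2.99) and KIF2C (log2 -2.94) and cyclin F (CCNF, log2 -2.79). Between K562 and GM12878 only FOXM1, a factor that drives mitotic genes (log2 -1.56), and CKS2, a small partner of CDK1 (log2 -1.32), were called. Both were lower in K562, and 28.7% of all tested genes were called either way. Against HepG2, 19 of the 35 were higher in K562 and none was lower, where 17.4% of all tested genes were higher and 26.7% lower. The largest changes were those of KIF2C (log2 3.88), CDK1 (log2 2.67) and UBE2S (log2 2.66, edgeR adjusted p = 2.55e-12). UBE2C, kept out of this list as a member, was at 0 in the same libraries.

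The genes most like the helicase subunits over the 8 libraries were sought among 2923 tested genes with at least 100 reads, by the root mean square difference between log2(CPM + 10) values, each centred on its own mean, and the mean of the 6 subunits. DUT was the nearest, at 0.16, followed by SMARCA4 (0.22), TUBB (0.23), NHP2 (0.23) and COX7B (0.25). DUT stood at 253, 209 and 211 CPM in GM12878, 56.3, 58.1 and 66.3 in HepG2 and 188 and 135 in K562. Of the members, TYMS was the nearest to that mean, at 0.31, and UBE2C the farthest, at 1.77. The subunits themselves, which make up the mean, lay between 0.45 for MCM2 and 0.84 for MCM3.

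Direct RNA reads run from the poly(A) tail towards the 5′ end, and each read was assigned to a transcript model: a known one, an incomplete splice match (part of a known exon chain), a new combination of annotated splice sites, a model with an unannotated splice site, or a genomic model. Of the 2820 member reads, 28.2% were in known models, 41.5% in incomplete splice matches, 15.9% in new combinations, 8.55% in models with an unannotated splice site and 5.82% in genomic ones. The share in known models was 61.2% for TYMS, 59.9% for PCNA and 41.1% for UBE2C. It lay between 7.39% for MCM2 and 18.4% for MCM7 among the helicase subunits, and MKI67 had 1 such read of 71 (1.41%, Wilson 95% interval 0.25% to 7.56%).

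**Figure D4:**
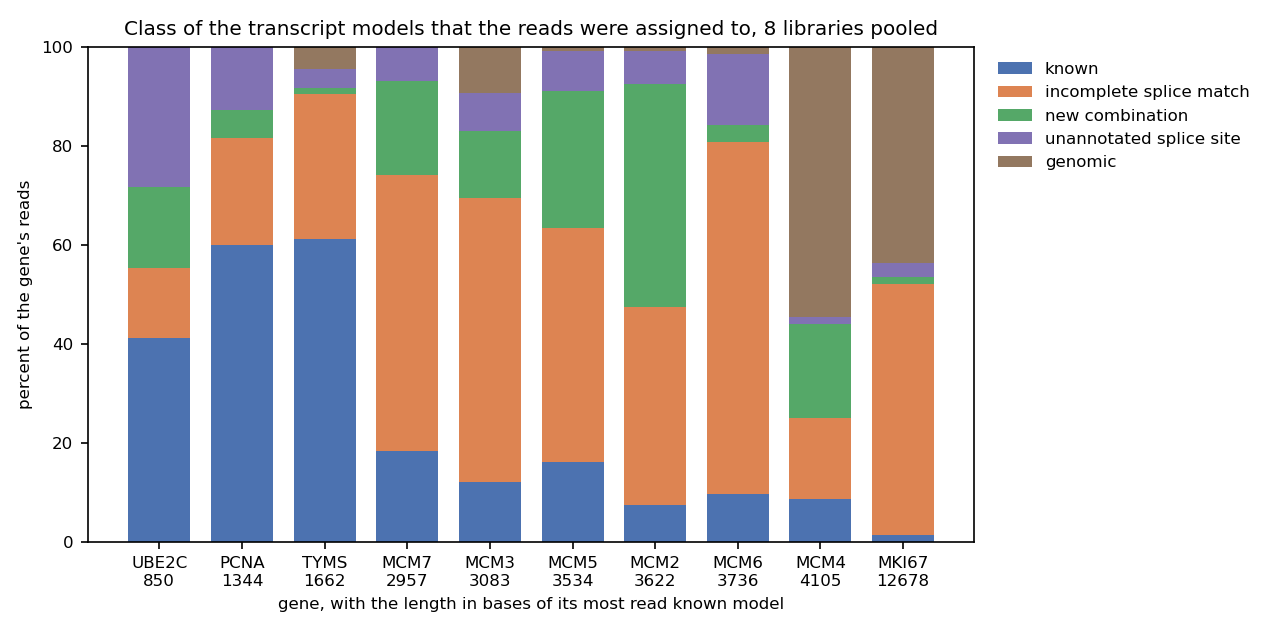
Percent of each gene's reads in the 5 model classes, with the 8 libraries pooled and genes ordered by the length of their most read known model. Known models hold 41.1% to 61.2% of the reads of the 3 short genes and at most 18.4% of those of the others.

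The shares went with model length. The most read known model has 850 bases in UBE2C, 1344 in PCNA and 1662 in TYMS, but 2957 to 4105 in the helicase genes and 12678 in MKI67. Over tested genes with at least 50 reads, the median share of reads in known models was 55.7% for models under 1000 bases, 39.3% from 1000 to 2000, 23.9% from 2000 to 3000, 14.3% from 3000 to 4000 and 11.1% from 4000 to 6000. From 6000 bases on it was 14.2%. TYMS, PCNA and MCM5 lay above the median of their length class, and UBE2C, MCM7, MCM2, MCM3, MCM6, MCM4 and MKI67 lay below theirs. The mean length of the model that a read was assigned to was 90.3% of the most read known model for PCNA, 38.5% for MCM4 and 13.5% for MKI67.

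**Figure D5:**
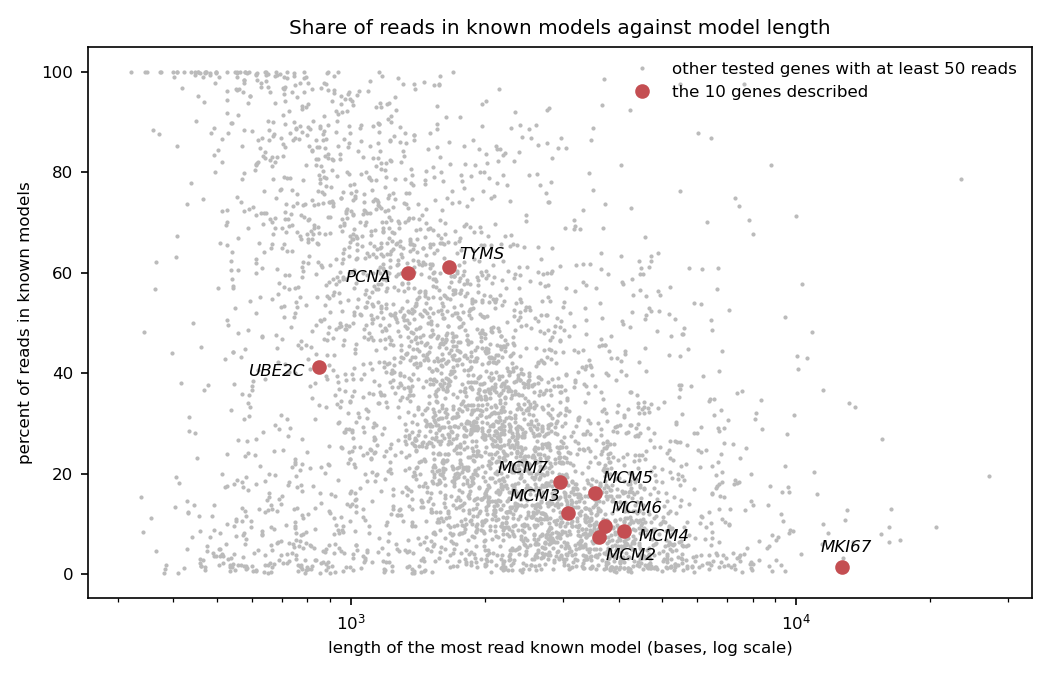
Percent of a gene's reads in known models, over 8 libraries, against the length in bases (log scale) of its most read known model, for tested genes with at least 50 reads. The 10 genes are in red: TYMS and PCNA are near 60%, the helicase genes at or under 18.4%, and MKI67, with a model of 12678 bases, at 1.41%.

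Most partial reads lacked the 5′ end. Of 368 incomplete splice matches of MCM7, 344 ran to the 3′ end only, and the figures were 152 of 162 for MCM3, 149 of 161 for MCM5 and 98 of 104 for MCM6. The full-length model MCM7-201 (ENST00000303887.9, 15 exons, 2957 bases) held 121 reads, and a 5-exon model of 968 bases that matches its 3′ part held 112. MCM5-201 (17 exons, 3534 bases) held 55 reads, MCM3-201 (17 exons, 3083 bases) 34, and MCM6-201 (17 exons, 3736 bases) 14.

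MCM2 and MCM4 had patterns of their own. In MCM2, 104 of 230 reads were in new combinations of annotated splice sites, and a 14-exon model of 3499 bases held 22 reads, against 11 for the known MCM2-201 with 16 exons and 3622 bases. That 14-exon model had 8 reads in GM12878, 4 in HepG2 and 10 in K562. In MCM4, 83 of 152 reads were in genomic models, and a model of 1 exon and 1145 bases held 59 of them, 38.8% of all MCM4 reads. It was read in every library (27 reads in GM12878, 12 in HepG2 and 20 in K562), and the last exon of MCM4-214 is longer, at 1475 bases.

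In PCNA and TYMS a single known model held most reads, and in UBE2C none did. PCNA-201 (6 exons, 1344 bases) held 241 of 409 PCNA reads, against 4 for PCNA-202, which starts at the upstream first exon. TYMS-203 (7 exons, 1662 bases) held 236 of 389 TYMS reads, and the other known TYMS models held 1 each. UBE2C-204 (6 exons, 850 bases) held 54 of 141 UBE2C reads, 34 in GM12878 and 20 in HepG2, and UBE2C-203 held 4, all in GM12878. A shift of transcript usage between lines could not be tested for any member, because no member had 2 known models with at least 10 reads. At a minimum of 5 reads the count of testable members was also 0. There MCM4-214 and MCM4-211, with 6 and 5 reads, fell short of the 10 reads required in each line compared.

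Over the pooled reads of a line, the share of helicase reads in known models was lowest in HepG2 for most subunits. The intervals given here cover counting error only and not the spread between libraries. Known models took 23.2% of MCM7 reads in GM12878 (49 of 211, Wilson 95% interval 18.03% to 29.4%), 5.93% in HepG2 (7 of 118, 2.90% to 11.7%) and 19.7% in K562 (65 of 330, 15.8% to 24.3%). MCM3 had 25.6%, 5.41% and 9.62%, and MCM5 20.1%, 7.69% and 13.6%. MCM6 had 14.9% in GM12878 and 6.78% in K562, and 0 of 20 reads in HepG2, a count that allows up to 16.1% by the Wilson interval. HepG2 had the lowest share in these 4 genes and in MCM4 (2.94%, 1 of 34 reads, Wilson 95% interval 0.52% to 14.9%). It did not in MCM2, where the shares were 5.04% in GM12878, 9.43% in HepG2 and 10.3% in K562. The HepG2 interval lay apart from that of GM12878 in MCM7 and MCM3 only, and from that of K562 in MCM7 only. In the other subunits the intervals of HepG2 overlapped those of both lines.

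HepG2 was also lowest over other genes. Among 550 genes with models of 2500 to 4000 bases and at least 15 reads in each line, the median share was 20.8% in GM12878, 14.3% in HepG2 and 19.0% in K562, and over all reads it ran from 37.6% to 41.3% in the HepG2 libraries, from 44.3% to 45.6% in GM12878 and from 47.3% to 47.4% in K562. Known models took 63.0%, 55.8% and 64.5% of TYMS reads in GM12878, HepG2 and K562, and 58.2%, 57.0% and 70.3% of PCNA reads, with Wilson intervals that overlap between GM12878 and HepG2. The part of read completeness in the gene levels was not tested. In a fit on known models alone, where a lower known share in HepG2 adds to a lower level, the MCM7 change was -3.57 on the log2 scale, against -1.82 over all models.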

How the data were processed

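The authors deposited tables made with TALON, per the labels, that give the raw read count of every transcript model in each library. The submitters' processing notes name minimap2 as a tool and hg38 as the build, without versions. Counts of all models of an annotated gene were summed here per library. They were tested with edgeR 4.0.16 in R 4.3.3 (filterByExpr, TMM, robust glmQLFit, glmQLFTest) in 1 fit over the 8 libraries with the line as the only term. P-values were adjusted over the 4778 tested genes within each comparison, and calls needed an adjusted p under 0.05 and a log2 change of at least 1 either way. SE is the absolute log2 change over the square root of F. The procedure was tested on simulated data. Coordinates are GENCODE v29 (GRCh38), by gene identifier.

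The members and lists were chosen with earlier results of these data known. Named were all members, genes near them, up to 3 called genes per list, comparison and direction with the largest change at 20 CPM or more in the higher line, the 5 genes most like the helicase subunits, and models with at least 5% of a member's reads. UBE2S levels in GM12878 and some known models with fewer reads were added after their values were seen. Read totals of 70374 to 461497 limit the precision, and 3 reads over a line correspond to 7.63 CPM in GM12878, 3.76 in HepG2 and 6.76 in K562. Alternatives were DESeq2 1.42.0, RLE size factors, no filter, known models only, no normalization factors, only the lines compared, a replicate block, a test against a 2-fold change, and leaving out each library. The planned test of transcript usage had no testable member.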

Additional observations from a re-analysis of the deposited data

How the results depend on the processing

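With 3, 3 and 2 libraries per line and few reads per member, small changes could not be resolved, and long models were seldom read whole. Of the 464 refitted log2 changes of members, 443 kept their direction and call. Fitting known models alone (5 members tested) gave 5 members lower in HepG2 and 3 lower in K562 than in GM12878, and 1 higher in K562 than in HepG2. A test against a 2-fold change gave 8 members lower in HepG2 (PCNA lost) and 3 lower in K562 (MCM2 and PCNA lost) than in GM12878, and 2 higher in K562 than in HepG2 (MCM4 lost), and no normalization factors, chosen after seeing the data, gave 5 members higher in K562 than in HepG2.

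Of the 88 pathway genes, the number higher in HepG2 than in GM12878 was 1 with DESeq2, known models and the 2-fold test, and the number lower was 17 with known models and 27 with the 2-fold test. Higher in K562 than in GM12878 were 3 with DESeq2, 10 with no filter on low counts and 1 with the 2-fold test. Lower were 3 with DESeq2, 4 with no filter, 4 with known models, 5 with only the lines compared, 5 with the replicate block and 2 with the 2-fold test. Higher in K562 than in HepG2 were 18 with known models and 25 with the 2-fold test, and lower were 2 with DESeq2, 2 with known models, 3 with no normalization factors, 3 with the replicate block and 2 with the 2-fold test. The causes were not tested, and the sets of genes tested differ with known models and with no filter.

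Leaving out 1 library at a time, members lower in HepG2 than in GM12878 ranged from 8 to 9, lower in K562 than in GM12878 from 4 to 5, and higher in K562 than in HepG2 from 3 to 4. Pathway genes ranged from 1 to 2 higher and 39 to 56 lower in HepG2 against GM12878, from 4 to 13 higher (13 without K562 replicate 1) and 4 to 8 lower in K562 against GM12878, and from 33 to 57 higher and 2 to 5 lower in K562 against HepG2. The lowest count of 4 lower in K562 than in GM12878 came without GM12878 replicate 1 and without K562 replicate 2, and that of 2 lower in K562 than in HepG2 without HepG2 replicate 1.

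Same-numbered libraries did not deviate together (correlations from -0.06 to 0.05), so the numbers were not taken to pair them, and the replicate block gave 9 members lower in HepG2 and 5 in K562 against GM12878, and 4 higher in K562 than in HepG2. Log2 changes that turned sign in an alternative were all uncalled. Leaving out 1 library, MCM3 in HepG2 against GM12878 ranged from -0.33 to 0.15 (without GM12878 replicate 1), MCM4 in K562 against GM12878 from -0.64 to 0.0056 (without GM12878 replicate 1), and PCNA in K562 against HepG2 from -0.35 to 0.11 (without HepG2 replicate 3). PCNA there was also 0.044 with known models, 0.21 with no normalization factors and 0.016 with the replicate block. TMEM230 in K562 against GM12878 ranged from -0.80 to 0.038 (without GM12878 replicate 2). MCM3AP ranged from -0.14 (without GM12878 replicate 2) to 0.42 in HepG2 against GM12878, where it was -0.27 with no normalization factors, and from -0.17 (without K562 replicate 2) to 1.03 in K562 against HepG2. MCM2 in K562 against HepG2 passed the 2-fold limit in 6 refits.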
